A study of Mus musculus with 6 samples.

Results

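This account covers 10 chemokine genes of fetal mouse prostate mesenchyme, Ccl2, Ccl7, Ccl8, Ccl9, Ccl11, Cxcl1, Cxcl5, Cxcl12, Cxcl14 and Cx3cl1, and their response to estradiol (E2). They were taken by gene symbol from the annotation of an Affymetrix mouse array, which gave 15 probe sets of the 22626 that are not array controls. Each probe set reads the transcripts it matches as a fluorescence signal. The cells were urogenital sinus mesenchymal cells of male CD-1 fetuses, an outbred stock, at gestation day 17, used at first passage after the epithelial cells had been removed by settling. E2-treated cells received 100 nM E2 for 4 days (n = 3) and control cells received the vehicle, 0.05% ethanol (n = 3). Both groups had first spent 3 days in estrogen-free medium, and both carried 690 pM DHT, an androgen that cannot be aromatized to estrogen, throughout. Whether the 3 samples of a group were separate cell preparations is not stated, and the p-values here cover only the variation among them, some of which may be technical.

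Chemokines are small secreted proteins that bind to surface glycans and steer cells that carry matching G protein-coupled receptors. They are named by the spacing of their first cysteines, as CC, CXC or CX3C. Fibroblasts and other stromal cells are a well known source. Some members are made steadily and position progenitor cells and leukocytes, such as Cxcl12, while others, such as Ccl2 and Cxcl1, are switched on by inflammatory cytokines.

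Array medians were 13.7 to 21.8 units as deposited, and every array was scaled to a common median of 17.2 units, the scale of all levels given here. A probe set was tested if its mean was at least 10 units, as deposited, in E2 or in control, which kept 14223. Arrays correlated at 0.934 to 0.96 within a group and at 0.922 to 0.95 between groups, in log2 signal. A ribosomal RNA control probe set was at 288 units in E2 replicate 2 and 281 units in control replicate 3, as deposited. On the other arrays it was at 22.8 to 44.7 units, and high ribosomal RNA signal below refers to this probe set. Another such probe set was high in control replicate 3 (28.8 units) but not in E2 replicate 2 (14.1 units, against 18 units in E2 replicate 3). These 2 arrays also had the lowest medians, 13.7 and 14 units. All 9 mesenchymal markers on the list were tested, with summed signal of 14330 to 15070 units in E2 and 14860 to 16780 units in control. None was called, and 7 of the 9 differences were negative, as were 56.6% of all probe sets tested. Among those 9, Dcn (decorin) and Lum (lumican), matrix proteoglycans, had the smallest p, with log2 differences of -0.18 and -0.17. After scaling, both were lower in every E2 array than in any control array, as were 8.49% of all probe sets tested.

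Of the 15 chemokine probe sets 12 were tested, and all 10 genes had at least 1 among them. Differences are E2 minus control on the log2 scale, from limma, two-sided, with Benjamini-Hochberg adjustment over all probe sets tested and a threshold of 0.05. By this test 1 chemokine probe set, that of Ccl8, rose and 0 fell. Over all probe sets tested, 0.492% rose and 0.253% fell. With the values as deposited, without scaling, the share of rises among all calls was 84.8%, against 66.0% after scaling. At an unadjusted p under 0.05, 2 chemokine probe sets were higher and 4 were lower, against 3.44% and 4.55% of all probe sets tested. The 2 were those of Ccl8 and Ccl11, and Ccl11 entered the test through its E2 mean alone. The 4 were those of Ccl2, the dimmer of Ccl9 and both of Cxcl12, which read 1 gene. By the brightest probe set of each gene, 2 of the 10 genes were higher and 2 lower. After scaling, the E2 arrays all lay above the control arrays for 2 probe sets (Ccl8 and the brightest of Cx3cl1). They all lay below for 3 (both of Cxcl12 and the dimmer of Ccl9). Over all tested these shares were 5.72% and 8.49%, also after scaling. As deposited, only Ccl8 of these stayed apart, and the groups of the others overlapped. The difference was negative for 8 of the 12, as it was for 56.6% of all tested. The median difference of the 12 was -0.31, beside -0.04 over all tested.

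**Figure D1:**
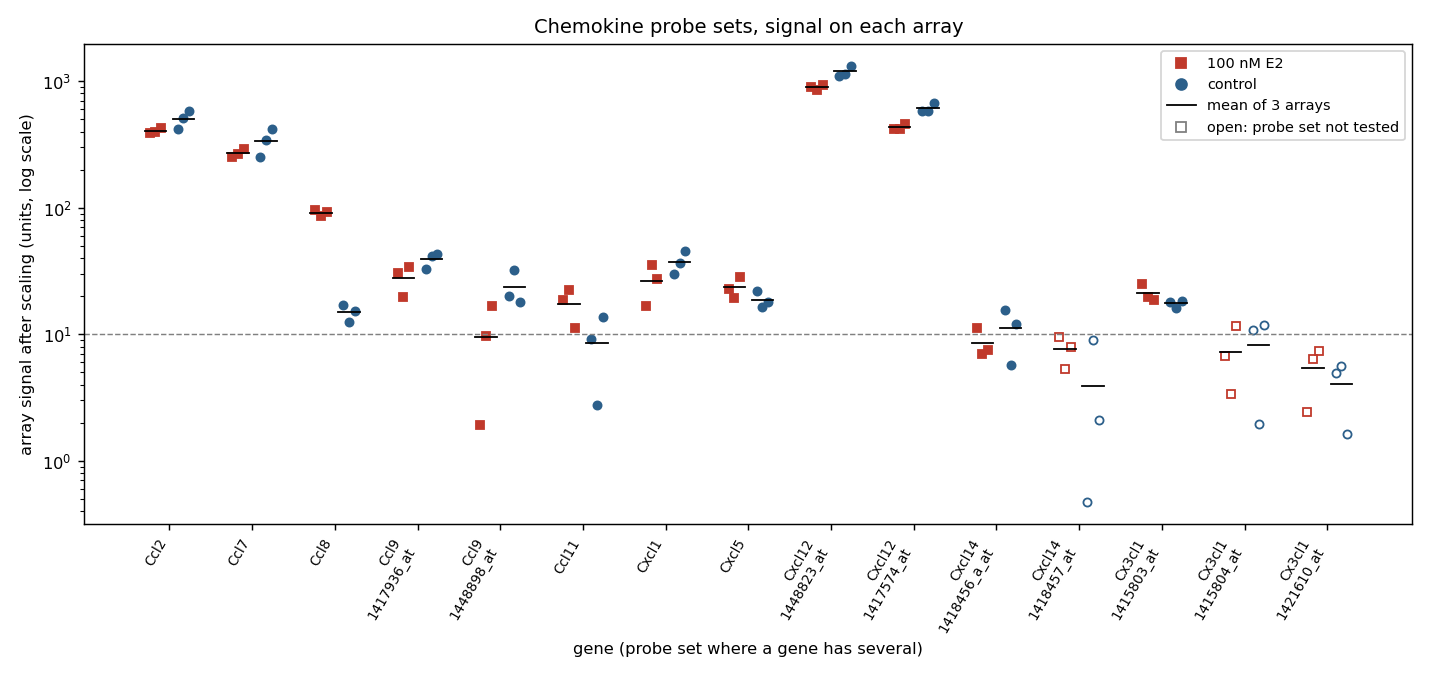
Signal of the 15 chemokine probe sets on each array, in units after scaling, on a log axis, with 100 nM E2 (squares) left of control (circles) and a bar at the mean of the 3 arrays. Ccl8 is the 1 gene whose groups stand far apart, with E2 arrays at 85.4 to 95.6 units and control arrays at 12.5 to 17.1 units, and open symbols mark the 3 probe sets that were not tested.

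Ccl8 encodes a CC chemokine that in the mouse acts through the receptor Ccr8 and draws T cells and eosinophils. Its probe set read 95.6, 85.4 and 92.9 units in E2 replicates 1 to 3, against 17.1, 12.5 and 15.3 units in control replicates 1 to 3. The E2 arrays lay close together, and the lowest of them was far above the highest control array. Ccl8 averaged 91.3 ± 5.29 units in E2 and 14.95 ± 2.31 units in control (SD, n = 3 each), a log2 difference of 2.62 (95% interval 2.19 to 3.05, adjusted p = 6.15e-06 from limma), or 6.15-fold. It ranked 6 by p among the 14223 probe sets tested. The difference was 2.50 to 2.72 with each array left out in turn, and 1.80 on the scale log2(value + 16). With an ordinary linear model for each probe set, without moderation of the variance, the adjusted p was 0.0629 and Ccl8 was not called. The summed signal of the 8 epithelial markers on the list moved with this result, at 132 to 137 units in E2 and 53.9 to 90.1 units in control. The largest part of that sum on every array was Krt18, at 60.4 to 83.5 units in E2 and 36.8 to 42.3 units in control. Of the 8, 4 were tested, and 3 of these (Krt19, Krt8 and Krt14) entered the test through their E2 means alone, which favors an upward difference. Krt18, a keratin of simple epithelia, was the 1 that rose (0.87, adjusted p = 0.0416 from limma). That call was lost in 10 of 16 alternatives, among them the unscaled values (adjusted p = 1), the replicate number as a block (0.0717), and the omission of E2 replicate 1 (0.227), E2 replicate 3 (0.144) or control replicate 1, 2 or 3 (0.09, 0.18 and 0.195). Krt19, another keratin, had a difference of 1.38 (adjusted p = 0.504 from limma), and of 0.71 without control replicate 2. The epithelial adhesion genes Epcam and Cdh1 and the keratins Krt5 and Krt15 had means below 10 units in both groups. The Krt15 mean was lower in E2 (1.13 units) than in control (4.64 units). Those of Epcam (7.19 against 2.93), Cdh1 (4.62 against 4.03) and Krt5 (7.25 against 6.54) were higher in E2. The part of epithelial RNA in the result for Ccl8 was not tested, and in bulk samples more cells of a type and more RNA per cell cannot be told apart.

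The bases upstream of the transcript start are shown for Ccl8, the 1 gene called, and for Cxcl12, the gene nearest to being called in the other direction. They are from RefSeq, build GRCm38.p6, plus strand, at chr11:82114935-82115184 for Ccl8 and chr6:117168285-117168534 for Cxcl12, and they run 5′ to 3′ and end at the base before the start.
Ccl8: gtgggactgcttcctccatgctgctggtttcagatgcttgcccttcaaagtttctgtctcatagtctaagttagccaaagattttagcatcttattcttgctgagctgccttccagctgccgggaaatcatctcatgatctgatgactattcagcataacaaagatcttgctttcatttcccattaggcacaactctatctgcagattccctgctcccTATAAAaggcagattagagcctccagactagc
Cxcl12: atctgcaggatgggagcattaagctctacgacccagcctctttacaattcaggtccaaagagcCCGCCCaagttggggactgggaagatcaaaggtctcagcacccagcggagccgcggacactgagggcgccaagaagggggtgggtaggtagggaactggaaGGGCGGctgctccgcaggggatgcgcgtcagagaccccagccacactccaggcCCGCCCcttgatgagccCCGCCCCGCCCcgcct
Capitals mark the matches to the 7 motifs searched on both strands, which were TATAAA (the TATA box), GGGCGG (the GC box), GGTCA (a half-site of the estrogen response element), the whole element (GGTCA, any 3 bases, TGACC), the STAT6 motif (TTC, any 4 bases, GAA), TGANTCA (the AP-1 motif) and the NF-kB motif by its name. The Ccl8 window held 1 match, a TATA box whose first base lies 32 bases before the start, and 12.4% of all 32851 windows of this length hold that motif. The Cxcl12 window held 5 matches to the GC box, of which the last 2 overlap by 1 base, and none to the others, and 32.7% of all windows hold a GC box. The half-site was in neither window and is in 35.2% of all windows, while the whole element is in 0.064%. The 2 windows differed in base composition, with 44.8% G and C and 1 CpG for Ccl8 and 64.4% and 14 CpG for Cxcl12, around a median of 52.4% and 6 CpG over all windows. Of the 10 genes 6 had a window in the table. Ccl2, Ccl7, Ccl11 and Cxcl5 had none. Among the 4 other windows, the half-site GGTCA was in those of Ccl9 and Cxcl14, and the NF-kB motif, which 7.25% of all windows hold, in those of Ccl9 and Cxcl1. The TATA box was in those of Ccl9 and Cx3cl1, and the GC box in that of Cx3cl1. The loose AP-1 form TGANTCA (6.75% of all windows) was in that of Ccl9, as TGAATCA. The STAT6 motif (5.85% of all windows) and the whole element were in none of the 6.

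In the RefSeq annotation of this assembly, Ccl2, Ccl7, Ccl11, Ccl12 and Ccl8 are consecutive protein-coding genes of chromosome 11, in that order. Ccl2 and Ccl7, at the other end of this row from Ccl8, encode chemokines that draw monocytes through Ccr2. The Ccl2 probe set read 387, 396 and 430 units in E2, against 421, 511 and 586 units in control. The Ccl7 probe set read 252, 264 and 289 units in E2, against 253, 344 and 415 units in control. In both genes control replicate 1 lay among or beside the E2 arrays and control replicates 2 and 3 lay above all of them, after scaling. As deposited, E2 replicate 3 (545 and 367 units) lay above control replicate 3 (478 and 338 units). The log2 difference was -0.31 for Ccl2 (95% interval -0.59 to -0.03) and -0.30 for Ccl7 (-0.65 to 0.04), with adjusted p of 0.577 and 0.684 from limma. The difference of Ccl2 was -0.44 without control replicate 1 and -0.20 without control replicate 3. That of Ccl7 was -0.495 without control replicate 1 and -0.14 without control replicate 3. Without both arrays of high ribosomal RNA signal the differences were -0.19 for Ccl2 and -0.13 for Ccl7.

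Ccl11 and Ccl12 lie between them. Ccl11, the eosinophil chemokine eotaxin, which acts through Ccr3, read 18.7, 22.4 and 11.1 units in E2, against 9.18, 2.78 and 13.6 units in control. The groups overlapped, and Ccl11 entered the test through its E2 mean alone, which favors an upward difference. Its difference was 1.25 (95% interval 0.01 to 2.48, adjusted p = 0.625 from limma), and 0.58 without control replicate 2, the lowest array. Ccl12, a mouse monocyte chemokine, read 9.70, 16.5 and 17.0 units in E2, against 18.7, 15.9 and 18.6 units in control, and its difference was -0.34 (adjusted p = 0.858 from limma), or -0.08 without E2 replicate 1.

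Ratios of 2 genes on the same array do not depend on how the array was scaled. The log2 ratio of Ccl8 to Ccl2 was higher in E2 by 2.93, and in each E2 array it was at least 2.87 above the control mean, while the control arrays lay between -0.27 and 0.46. The ratios of Ccl8 to Ccl7 and to Cxcl12 were higher by 2.92 and 3.04 in the same way, with no overlap. The ratio of Ccl8 to Ccl11 was higher by 1.37 and its groups overlapped. Ccl2 and Ccl7 moved together from array to array: their ratio differed by -0.01 between E2 and control, with an SD of 0.024 in E2 and 0.121 in control (n = 3 each). By exact permutation of the arrays, two-sided, the ratios of Ccl8 to Ccl2, Ccl7 and Cxcl12 each had p = 0.1, the smallest that 3 arrays against 3 allow, and 0.2 after adjustment over the 6 ratios computed. These ratios share the Ccl8 signal, whose separation was already known, so they restate it and are not independent tests. For Ccl8 to Ccl11 the exact p was 0.2.

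**Figure D2:**
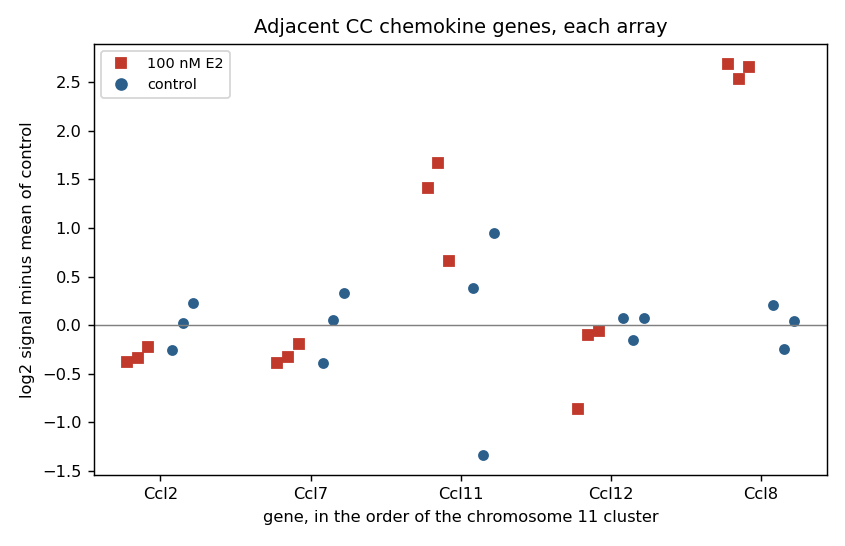
Log2 signal of 5 adjacent CC chemokine genes on each array, relative to the mean of the 3 control arrays, in chromosome order, with E2 (squares) left of control (circles). The E2 arrays of Ccl8 lie around a mean of 2.62 above control, those of Ccl2 and Ccl7 at or below most control arrays, and those of Ccl11 overlap with control.

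Ccl2 and Ccl7 varied beside markers of macrophages and other leukocytes, a cell type that also makes them. All 20 of these markers were on the array and 19 were tested. The 19 differences were all negative, with a median of -0.43, 0 were called by limma, and 4 were lower at an unadjusted p under 0.05. Over all probe sets tested, 56.6% had a negative difference and 4.55% were lower at that unadjusted p. The summed signal of the 20 was 817, 768 and 887 units in E2 replicates 1 to 3, against 838, 1099 and 1355 units in control replicates 1 to 3. Without Lyz2, the brightest of them, the sum was 434.9, 450.5 and 474.9 units in E2, against 474.1, 640.6 and 766.6 units in control. Control replicate 1 was thus at the level of the E2 arrays and control replicate 3 highest after scaling, as for Ccl2 and Ccl7. The marker sum and the chemokine signals share the scaling of each array. As deposited, control replicate 2 was the highest array for Ccl2 (592 units) and Ccl7 (398 units), with control replicate 3 at 478 and 338 units. The marker sum was taken only after scaling, so these unscaled values cannot be set against it. No marker was listed at 0. The defining markers Ptprc (the leukocyte antigen CD45) and Adgre1 (the macrophage antigen F4/80) read 5.21 to 16.3 and 31.9 to 38.0 units in E2, against 11.5 to 21.2 and 33.9 to 55.0 units in control, and Itgam (CD11b) was below 10 units in both groups. The smallest p were those of C1qb (-1.24, adjusted p = 0.063 from limma), Ctss (-0.75), C1qa (-0.84) and Tyrobp (-0.49), which encode complement chains, a lysosomal protease and a signaling adapter of myeloid cells. C1qb was called without control replicate 1 (adjusted p = 0.0226 from limma), on the scale log2(value + 16) (0.0479) and with array weights (0.0267). On the unscaled values its adjusted p from limma was 0.299. The part of leukocyte RNA in the levels of Ccl2 and Ccl7 was not tested.

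**Figure D3:**
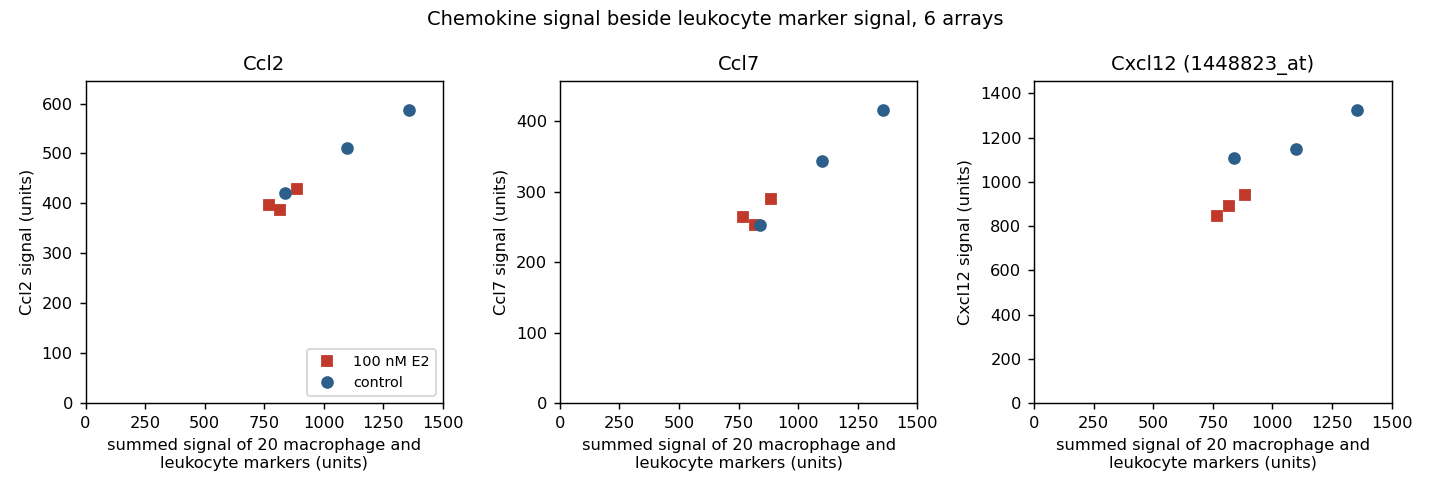
Signal of Ccl2, Ccl7 and the brighter Cxcl12 probe set against the summed signal of 20 macrophage and leukocyte markers, both in units after scaling, 1 point per array, with E2 as squares and control as circles. Control replicate 1, with a marker sum of 838 units, sits with the E2 arrays for Ccl2 and Ccl7 and above them for Cxcl12.

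Cxcl12, also called stromal cell-derived factor, holds hematopoietic progenitors and guides migrating cells through Cxcr4. It was measured by 2 probe sets, and after scaling both were lower in every E2 array than in any control array. As deposited, the groups overlapped in both probe sets. There E2 replicate 3, at 1191 and 584 units, lay above control replicate 1 (1102 and 575 units) and control replicate 3 (1077 and 546 units). The brighter read 892, 846 and 939 units in E2, against 1108, 1148 and 1323 units in control. The dimmer read 419, 419 and 461 units in E2, against 578, 583 and 671 units in control. The log2 differences were -0.42 (95% interval -0.65 to -0.19) and -0.49 (-0.74 to -0.25), with adjusted p of 0.132 and 0.0701 from limma, so neither was called. Both probe sets read transcripts of 1 gene on the same arrays and are not independent. The dimmer one was called with quantile normalization (adjusted p = 0.0407), with a filter at 100 units (0.0354) and with array weights (0.0402), and its adjusted p was 1 on the unscaled values. The difference stayed between -0.54 and -0.40 for the dimmer and between -0.47 and -0.30 for the brighter in all settings tried. The ratio of Cxcl12 to Ccl2 on the same array differed by -0.10 between the groups, with an exact permutation p of 0.3. In control replicate 1 the leukocyte marker sum of 838 units lay within the E2 range of 768 to 887 units, after scaling. On that array the brighter Cxcl12 probe set was at 1108 units, above the 3 E2 arrays on the same scale. This is 1 array, and the part of leukocyte RNA in the difference of Cxcl12 was not tested.

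**Figure D4:**
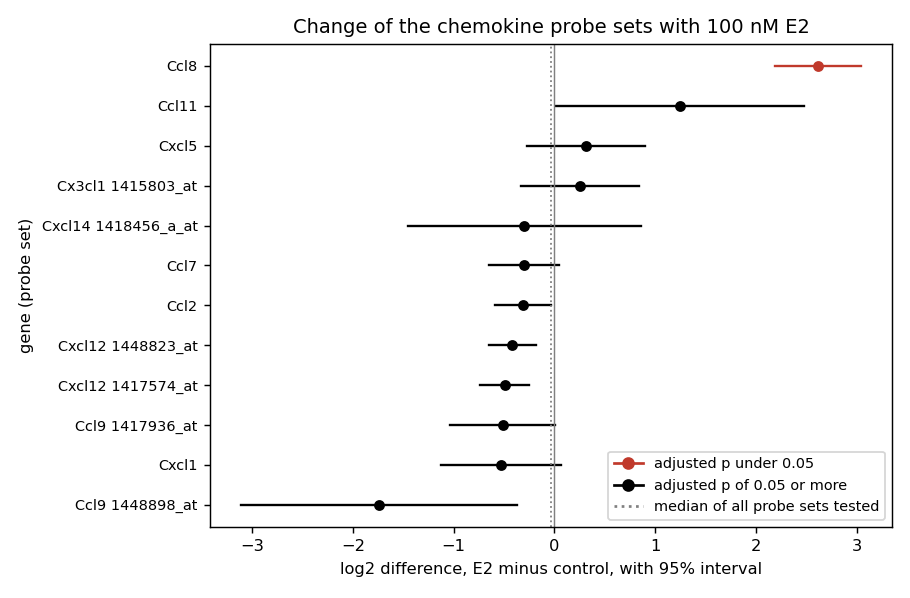
Log2 difference, E2 minus control, of the 12 chemokine probe sets tested, with 95% intervals from limma, ordered by size. The interval of Ccl8 (2.19 to 3.05) lies far from 0, both Cxcl12 probe sets lie below 0 without passing the threshold after adjustment, and the dotted line marks the median of all probe sets tested (-0.04).

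Ccl9 encodes a CC chemokine that acts through Ccr1 on myeloid cells, and its 2 probe sets differed in level and in spread. The brighter read 30.6, 19.6 and 33.7 units in E2, against 32.7, 41.4 and 43.2 units in control, with 1 E2 array above the lowest control array. Its difference was -0.51 (95% interval -1.03 to 0.01, adjusted p = 0.632 from limma), and it was -0.27 without E2 replicate 2 and -0.20 without both arrays of high ribosomal RNA signal. The dimmer read 1.91, 9.74 and 16.7 units in E2, against 20, 32.2 and 18.1 units in control, without overlap after scaling. As deposited it overlapped, with E2 replicate 3 at 21.2 units above control replicates 1 and 3 at 19.9 and 14.7 units. Its difference of -1.74 (95% interval -3.11 to -0.38, adjusted p = 0.445) rests on low E2 signal, with a mean of 9.46 units after scaling and 10.3 units as deposited. Without E2 replicate 1, the lowest array, that difference was -0.83.

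The CXC chemokines Cxcl1 and Cxcl5 draw neutrophils through Cxcr2. Cxcl1 read 16.9, 35.5 and 27.3 units in E2, against 29.8, 36.4 and 45.2 units in control. Cxcl5 read 22.9, 19.2 and 28.4 units in E2, against 21.9, 16.5 and 17.9 units in control. The groups overlapped for both genes, which leaned in opposite directions. The differences were -0.53 for Cxcl1 (95% interval -1.13 to 0.07) and 0.32 for Cxcl5 (-0.27 to 0.90), with adjusted p of 0.681 and 0.832 from limma. That of Cxcl1 was -0.23 without E2 replicate 1, and that of Cxcl5 was 0.17 without E2 replicate 3.

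Cxcl14, a CXC chemokine found in epithelia and in mesenchyme, was near or below 10 units throughout. Its brighter probe set read 11.2, 6.98 and 7.57 units in E2, against 15.7, 5.76 and 12.1 units in control, and the interval of its difference ran from -1.45 to 0.86. The difference was -0.30, and between -0.72 and -0.16 with single arrays left out. It entered the test through its control mean alone. The other was not tested, at means of 7.62 units in E2 and 3.88 units in control. Cx3cl1, the membrane-bound chemokine fractalkine, had 3 probe sets, of which 1 was tested. It read 24.9, 19.6 and 18.6 units in E2, against 17.8, 16.3 and 18.5 units in control. All E2 arrays thus lay above control by a narrow margin after scaling. As deposited, E2 replicate 2 (15.6 units) lay below control replicates 1 and 2 (17.7 and 18.9 units). The difference was 0.25 (95% interval -0.34 to 0.84, adjusted p = 0.878 from limma), and 0.125 without E2 replicate 1, the highest array. The 2 probe sets not tested had means of 7.23 and 5.37 units in E2, against 8.17 and 4.06 units in control.

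The other chemokine genes were mostly at or under the limit. Of 28, 23 had a probe set with their symbol alone, and 8 of these were tested by their brightest probe set. By limma 0 were called, 0 had an unadjusted p under 0.05, and 6 of the 8 differences were negative, with a median of -0.32. By gene, over all 8246 genes tested, 0.57% rose and 0.34% fell. The smallest p were those of Ccl6 (-0.64), a Ccr1 ligand of myeloid cells, Pf4 (-0.30), a platelet chemokine, Ccl12 and Ccl27a (-0.46), a skin chemokine, none with an adjusted p under 0.636. The 15 not tested included the interferon-induced Cxcl9, Cxcl10 and Cxcl11.

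The receptors for these ligands were hardly measured in the cells. Of 18 conventional chemokine receptors 16 were on the array with their symbol alone and 1 was tested, Cx3cr1, the receptor of Cx3cl1, at 7.54, 13.1 and 8.75 units in E2, against 12.2, 9.42 and 15.4 units in control (adjusted p = 0.907 from limma). The other 15, with Ccr2 (for Ccl2 and Ccl7), Ccr3 (for Ccl11), Ccr8 (for Ccl8), Cxcr2 (for Cxcl1 and Cxcl5) and Cxcr4 (for Cxcl12) among them, had means below 10 units in both groups. Cxcr4 was at 10.5, 12.8 and 3.28 units in E2, against 1.87, 0.473 and 4.99 units in control. Of 5 atypical receptors, which take up chemokines without the usual signal, 2 were tested. Ackr3, which removes Cxcl12, was at 19.1, 39.1 and 28.3 units in E2, against 27.9, 37.1 and 25.3 units in control. Its difference of -0.10 was positive without E2 replicate 1 (0.16) or control replicate 2 (0.06). Ackr1, a scavenger of inflammatory chemokines, was at 9.88, 27.6 and 7.27 units in E2, against 6.27, 14.8 and 10.9 units in control, and its difference of 0.32 was -0.25 without E2 replicate 2, the highest array.

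Chemokines are also cut and shed at the cell surface. Of 10 genes for this, 9 were tested and 0 were called by limma, with 2 lower at an unadjusted p under 0.05, as were 4.55% of all probe sets tested, and a median difference of 0.00. These 2 were Mmp2 and Mmp14, metalloproteinases that cleave Cxcl12 and Ccl7. Mmp2 read 729, 636 and 701 units in E2, against 944, 773 and 897 units in control (difference -0.34, adjusted p = 0.374 from limma). Mmp14 read 583, 515 and 606 units in E2, against 754, 665 and 702 units in control (-0.32, adjusted p = 0.414). After scaling, both were lower in every E2 array than in any control array, as were 8.49% of all probe sets tested. On the unscaled values the differences were -0.28 for Mmp2 and -0.26 for Mmp14, with unadjusted p of 0.361 and 0.41 from limma. Adam17, which sheds Cx3cl1, had a difference of -0.39 and Mmp3 one of 0.33, with adjusted p of 0.632 and 0.752. The aminopeptidase-like Dpp4, which inactivates Cxcl12, was below 10 units in both groups.

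Cytokine receptors and the factors that carry their signal to chemokine genes changed in 1 case. Of 18 genes 16 were on the array with their symbol alone and were tested, 1 rose, 0 fell by limma, and 2 were lower at an unadjusted p under 0.05 (4.55% of all probe sets tested), with a median difference of -0.15. Il4ra, the receptor chain through which interleukin-4 induces Ccl11 and other chemokines by way of Stat6, read 105, 74.0 and 87.0 units in E2, against 18.8, 23.4 and 33.2 units in control. Its difference was 1.84 (95% interval 1.36 to 2.33, adjusted p = 0.000775 from limma), and it was not called without the variance trend (0.0801) or without moderation (0.307). The study picked Il4ra, Ccl8 and Ccl11 from these same arrays, so their direction is no independent evidence. Stat6 itself had a difference of 0.03 (adjusted p = 0.98). Relb, a subunit of NF-kB, and Ifngr2, a chain of the interferon-gamma receptor, had differences of -0.55 and -0.35, with adjusted p of 0.364 and 0.576.

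**Figure D5:**
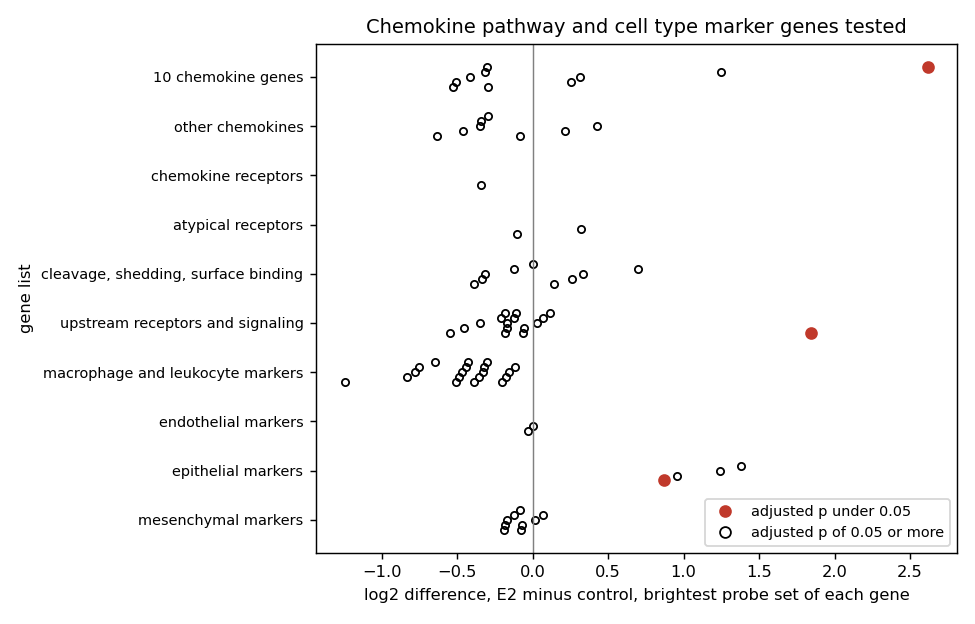
Log2 difference, E2 minus control, of each gene tested, by its brightest probe set, in the 10 chemokine genes and in 9 further gene lists, with filled points for an adjusted p under 0.05. Ccl8 at 2.62, Il4ra at 1.84 and Krt18 at 0.87 are the 3 genes called, and the 19 macrophage and leukocyte markers tested all lie below 0.

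Endothelial cells, a further source of chemokines, gave little signal. Of 7 endothelial markers 2 were tested and 0 were called by limma or had an unadjusted p under 0.05, and Pecam1 and Cdh5, which define the type, had means below 10 units in both groups. The summed signal of the 7 was 53.1 to 68.7 units in E2 and 45.8 to 59.6 units in control.

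Genes with the array pattern most like that of a chemokine were sought among 7671 genes whose means reached 10 units in E2 and in control, by Pearson correlation of log2 signal over the 6 arrays. For Ccl8 these were Rev3l, Col6a1 and Perp, at r of 0.997, 0.992 and 0.991, and 45 genes were above 0.95. Their differences were smaller than that of Ccl8, at 0.62, 0.49 and 0.64, with adjusted p of 0.119, 0.0519 and 0.163 from limma. The pattern of Ccl8 is mostly its rise with E2, so the direction of these differences follows from the choice. For Ccl2 they were Nme2, Impa1 and Dpep1, at 0.993, 0.990 and 0.987. For Cxcl12 they were Smim14, Ctsl and Cnn3, at 0.996, 0.9955 and 0.991. With 6 arrays in 2 groups, many genes reach such values, and all share the same arrays and scaling.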

How the data were processed

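The authors converted the scanned Affymetrix array images with GeneChip Operating Software and Gene Expression Console, and deposited a linear intensity for each probe set on each of 6 arrays. Neither source used here gives the software versions, the signal algorithm or its scaling. Column medians differed up to 1.59-fold, so each array was scaled to its median over 22626 probe sets, leaving out 64 array controls. Scaling changes which probe sets are called.

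Probe sets that averaged 10 units or more as deposited in E2 or control (14223) were tested on the log2 scale with limma 3.58.1 in R 4.3.3, using lmFit, then eBayes, which let the prior variance follow mean signal. Names are those of the platform annotation, brought up to date through gene IDs. Another 691 probe sets carried several symbols and 1555 none, and these were not named. Lists use each gene's brightest probe set by mean log2 signal.

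The members, gene lists and tests were chosen with earlier results of these data known. Named are all members, in each list the genes called and up to 4 with the smallest p, and the 3 genes most like each of 3 members. Receptors of the members, defining markers, Stat6, Dpp4 and the interferon-induced chemokines were named for their role, after their values were seen. The fit was tested on simulated data. The alternatives changed the normalization (quantile, or none), the treatment of low values (a floor or a higher filter, no filter at all, or log2 of the value plus 16), the variance model (without trend, without moderation, with array weights, with the replicate number as a block), the arrays used (leaving out 1, or both with high ribosomal RNA signal), and the summary of a gene with several probe sets (their mean). The number of arrays limits the precision.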

Additional observations from a re-analysis of the deposited data

How the results depend on the processing

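Of 197 values of the 12 chemokine probe sets under the alternatives, 193 kept their direction and their side of the threshold. The other 4 were Ccl8 without moderation of the variance, and the dimmer Cxcl12 probe set, called in 3 settings. Thus the chemokine probe sets called higher were 0 without moderation and 0 with a filter at 100 units, which left Ccl8 out, and those called lower were 1 with quantile normalization, 1 with a filter at 100 units and 1 with array weights. With single arrays left out, 1 was called higher and 0 lower each time. Over all probe sets, 70 were called higher and 36 lower, and these counts were 39 and 7 as deposited, 15 and 1 without the variance trend, 3 and 0 without moderation, 112 and 70 with array weights, and 41 higher with a filter at 100 units. With single arrays left out they ran from 37 to 75 higher and from 11 to 31 lower. The rises numbered 37 and 42 when E2 replicate 1 or 3 was omitted, and the falls 19 when E2 replicate 1 was, and 17, 15 and 11 when control replicate 1, 2 or 3 was. With the replicate number as a block, 61 were higher and 27 lower. Samples of one number did not deviate together (r of 0.008, -0.053 and -0.058), and not every sample correlated best with its own number. The samples were treated as unpaired. Such values cannot settle whether samples of one number shared a cell preparation, which is not stated. No call among the chemokines changed with the block. The difference of Ackr1 reversed with array weights (-0.075) and without both arrays of high ribosomal RNA signal (-0.19), and ranged from -0.25 (E2 replicate 2 omitted) to 0.71 with single arrays left out, at -0.02 when control replicate 1 was omitted. That of Ackr3 ranged from -0.35 to 0.16 in the same way, and was positive when E2 replicate 1 (0.16) or control replicate 2 (0.06) was omitted. The cause was not tested. For the tested probe sets of Ccl11 and Cxcl14, which are near 10 units, the intervals are wide and a change of the size seen for Cxcl12 was not detectable. The brighter Ccl9 probe set, Cxcl1, Cxcl5 and Cx3cl1 had standard errors of 0.243, 0.278, 0.272 and 0.274, against 0.108 and 0.113 for Cxcl12. Cxcl12 was itself not called in the main test. For the members not called, the absence of a call thus does not show the absence of such a change.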
